A study of Mus musculus with 3 samples.

Results

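The nuclear genes for the subunits of the mitochondrial respiratory chain and of ATP synthase were measured in nuclei of the hippocampus. They were chosen by name alone, as the gene symbols that begin with Nduf and a subunit letter and number, with Uqcr, with Cox4 to Cox8 or with Atp5, and that had at least 30 UMIs over all libraries. A UMI is a molecular tag that counts 1 captured RNA molecule. Of 81 matching symbols among 32285 genes, 79 met the minimum. They comprise 36 genes of complex I, 8 of complex III, 18 of complex IV and 17 of complex V, which is ATP synthase. Ndufa4 and Ndufa4l2, named for complex I, were counted with complex IV, where NDUFA4 has its place. Just inside the minimum were Ndufa4l2 with 32, Cox4i2 with 59 and Cox7a1 with 98 UMIs in all. The genes left out were Cox8b with 4 and Cox8c with 0 UMIs.

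The 3 libraries each hold nuclei from 1 adult female mouse of the genotype Scn8aD/+, which carries 1 D allele of the sodium channel gene Scn8a, collected after seizure onset. Nuclei were stained with propidium iodide, sorted and put through the 10x 3' platform. A separate batch label goes with each mouse, and the effects of animal and batch cannot be told apart. No control or pre-onset sample was analysed here, so every comparison sets one class of nuclei against another in these 3 mice and none is about the genotype.

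The respiratory chain passes electrons from NADH and succinate to oxygen and uses the energy to pump protons across the inner mitochondrial membrane, and ATP synthase lets them flow back to make ATP. Complex I takes electrons from NADH, complex III hands them to cytochrome c, and complex IV, cytochrome c oxidase, passes them to oxygen. Most subunits are encoded in the nucleus, the remainder in mitochondrial DNA. Several complex IV subunits come in isoforms encoded by separate genes, of which one is made in nearly all cells and the other in heart, muscle, testis, lung or other restricted places. In the brain, parvalbumin interneurons, which fire fast and long trains of spikes, are known for dense mitochondria.

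Classes were named from marker genes after clustering on genes that excluded the 79 genes, the related gene lists and ribosomal protein genes, and the suffix -like marks this origin. In the naming, a cluster led by ribosomal protein genes, which the marker rules alone would have named CA1, was left unnamed and so stayed outside the comparisons. Mice 1, 2 and 3 gave 8863, 13904 and 4659 barcodes with a total of 100230288, 50931257 and 140527761 UMIs, of which the 79 genes took 0.234%, 0.267% and 0.149%. Median depth per barcode differed widely, at 8859, 1711 and 25775 UMIs. After filters 7889, 11995 and 4393 nuclei remained. Barcodes shared between libraries numbered 13 to 36 a pair, at most 0.537% of the smaller library. Many clusters belonged mostly to 1 mouse: 99.4%, 98.0% and 99.8% of the granule-like nuclei of mice 1, 2 and 3 sat in clusters that drew at least 90% of their nuclei from that mouse. In the checked classes 0 markers of the own list were at 0, and each list was higher in its class than in the class compared, as with 6 Pvalb markers at 907, 976 and 1241 CPM in Pvalb-like nuclei, against 285, 223 and 308 CPM in the other inhibitory subtypes. The classes were named from these same lists, so this outcome follows largely from the naming and is no separate support for the names. Levels are given as CPM, the UMIs of a gene scaled to 1e6 UMIs of the class in a mouse. A level summed over nuclei does not separate fewer nuclei that express a gene from less RNA per nucleus.

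Summed over the 79 genes, the level was higher in non-neuronal than in most neuronal classes and differed between mice as well. Endothelial or mural-like nuclei had 5425, 4168 and 3144 CPM in mice 1, 2 and 3, and astrocyte-like nuclei 4128, 3436 and 2905 CPM. These were the highest means of the 15 named classes, with the endothelial or mural-like value above the astrocyte-like value in all 3 mice. CA1-like nuclei had 2060, 1813 and 1377 CPM and CA3-like nuclei 2065, 1664 and 1262 CPM, the lowest means, and they overlapped each other. The CA1-like values are without the cluster that lost the CA1 name. Pvalb-like nuclei had 3243, 3005 and 1744 CPM, a mean of 2664 ± 806 CPM (SD, n = 3 mice), which among neurons was below that of Cajal-Retzius-like nuclei (2766 ± 1056 CPM) and above those of the other inhibitory and the glutamatergic classes. Neighbours in the order did not separate in the middle of the range: Pvalb-like exceeded oligodendrocyte-like (2647 ± 600 CPM) in 1 of 3 mice. Mouse 3, the deepest library, had the lowest sum in every one of the 15 classes.

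**Figure D1:**
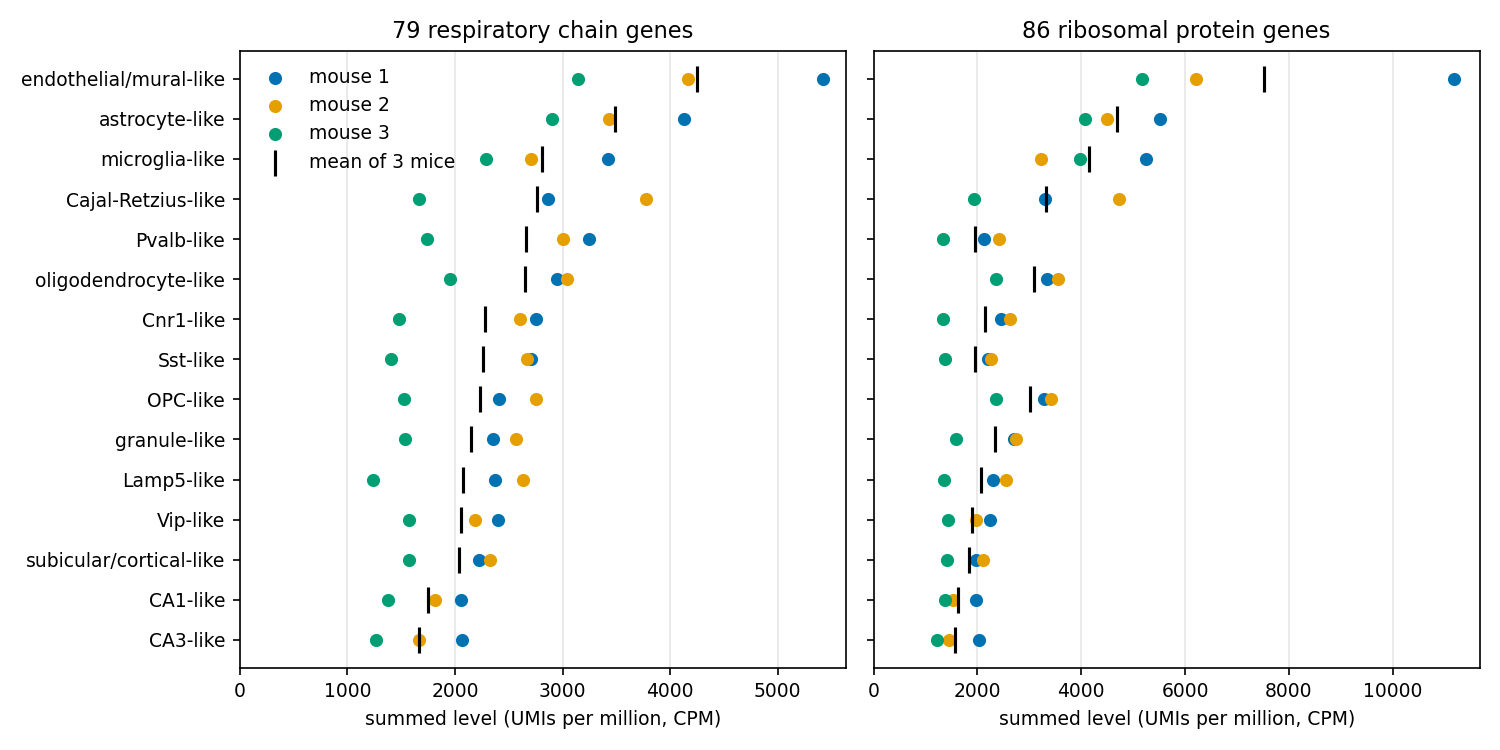
Summed level (CPM, x axis) of the 79 respiratory chain genes (left) and of 86 ribosomal protein genes (right) in 15 classes of nuclei (rows), with 1 point per mouse and the mean of 3 mice as a bar. Both sums are highest in endothelial or mural-like nuclei, with means of 4246 and 7518 CPM, while Pvalb-like nuclei are high on the left and low on the right.

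Ribosomal protein genes, another set of short, widely used genes, also had their highest mean in endothelial or mural-like nuclei and their lowest in CA3-like nuclei, although in mouse 1 the CA1-like sum (1970 CPM) and the subicular or cortical glutamatergic-like sum (1967 CPM) were below that of CA3-like nuclei. Their sum was 11179, 6207 and 5167 CPM in endothelial or mural-like nuclei and 2032, 1460 and 1215 CPM in CA3-like nuclei. The ratio of the respiratory chain sum to the ribosomal sum in endothelial or mural-like nuclei was 0.485, 0.672 and 0.608. Pvalb-like nuclei had the highest ratio of the 15 classes in each mouse, at 1.53, 1.25 and 1.30. The mitochondrially encoded subunits summed to 1508 ± 383 CPM in endothelial or mural-like, 541 ± 127 CPM in astrocyte-like and 75.7 ± 11.9 CPM in Pvalb-like nuclei (SD, n = 3 mice). Their transcripts are made in mitochondria, outside the nucleus, and their part in the class differences was not tested.

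Of the isoform genes of complex IV, 4 had their higher levels in few classes. COX6A2 is known as the heart and muscle form of subunit 6A. Cox6a2 had 5.24, 2.66 and 0.61 CPM (47, 18 and 7 UMIs) in inhibitory neuron-like nuclei of mice 1, 2 and 3, against 0.0754, 0.126 and 0.0377 CPM (5, 3 and 4 UMIs) in glutamatergic neuron-like nuclei. The ranges did not overlap, and the log2 fold change was 4.91 ± 0.52 (SE), with an adjusted p of 0.00718 in edgeR. Cox6a2 met the count filter only through the inhibitory neuron-like sums, where it is high, so the call is no separate support for the difference. This call held in all 10 alternative settings that could test it, with adjusted p up to 0.0429. Within inhibitory nuclei, Pvalb-like nuclei had 11.6, 2.63 and 1.34 CPM (30, 3 and 5 UMIs) and Lamp5-like nuclei 3.40, 8.40 and 1.06 CPM (5, 6 and 2 UMIs). Vip-like nuclei had 4.36, 3.52 and 0 CPM from 3, 1 and 0 UMIs, and Cnr1-like nuclei 1.30, 1.07 and 0 CPM from 2, 1 and 0 UMIs. Sst-like nuclei had 0 UMIs in all 3 mice, where 3 counts would be 2.43, 3.58 and 1.03 CPM. Pvalb-like was the highest of these subtypes in mice 1 and 3 and Lamp5-like in mouse 2, with wide counting intervals. In the comparison of Pvalb-like with the other subtypes Cox6a2 missed the filter on low counts. Without that filter its log2 fold change there was 2.52 ± 0.58 (SE; adjusted p = 0.000268). Mouse 1 gave 30 of the 38 UMIs in Pvalb-like nuclei, and in mouse 2 both Lamp5-like and Vip-like levels were above the Pvalb-like level. The difference was thus not seen in each mouse against each subtype.

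Cox6a2 lies at chr7:128205435-128206387 (mm10) and overlaps the integrin gene Itgad on the other strand. No source used here says whether reads were counted by strand, so reads of both genes could be mixed. Itgad had 2.12, 3.39 and 0.959 CPM in inhibitory neuron-like nuclei, 0.0905, 0.587 and 0.226 CPM in glutamatergic neuron-like nuclei and 12.6, 6.05 and 47.3 CPM in glia-like nuclei. Cox6a2 itself had 0.616, 0.712 and 0.838 CPM in the glia-like nuclei, where Itgad was highest. Its widespread counterpart Cox6a1 averaged 35.6 ± 13 CPM in inhibitory and 27.4 ± 8.19 CPM in glutamatergic neuron-like nuclei (SD, n = 3 mice), a difference that missed the threshold (adjusted p = 0.169).

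COX6B2, known as the testis form of subunit 6B, was lower in neurons. Cox6b2 had 0.159, 0.261 and 0.0596 CPM (12, 8 and 7 UMIs) in neuron-like nuclei, against 5.30, 4.51 and 2.99 CPM (43, 38 and 25 UMIs) in glia-like nuclei. The ranges did not overlap, and the log2 fold change was -4.53 ± 0.42 (SE), with an adjusted p of 0.0179. Cox6b2 met the count filter only through the glia-like sums, where it is high, so the call is no separate support for the difference. The call was lost without mouse 1 and without mouse 3, settings in which 0 of all genes passed in edgeR, and adjusted p over the alternatives reached 0.145. Astrocyte-like nuclei had 22.1, 12.2 and 8.34 CPM from 5, 3 and 12 UMIs. Oligodendrocyte-like nuclei had 6.46, 8.19 and 1.56 CPM from 33, 24 and 6 UMIs. Endothelial or mural-like nuclei held 0, 0 and 6 UMIs of it, which is 12.9 CPM in mouse 3, above the astrocyte-like level of that mouse. In mice 1 and 2 the exact 95% counting interval of a count of 0 reaches 22.5 and 33.4 CPM, also above the astrocyte-like levels. Relative to neuron-like nuclei the astrocyte-like level was 138-fold, 46.9-fold and 140-fold higher, with exact 95% counting intervals of 38.2 to 422, 8.01 to 195 and 50.8 to 420. Cox6b1, the common form, averaged 23.1 ± 7.07 CPM in neuron-like and 34.7 ± 9.01 CPM in glia-like nuclei (adjusted p = 0.387). The glutamatergic markers summed to 543, 1514 and 486 CPM in glia-like nuclei of mice 1, 2 and 3, and their part in these values was not tested.

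COX4I2 and NDUFA4L2 are known as hypoxia-linked relatives of subunits COX4I1 and NDUFA4, and both are known from lung and from pericytes, the contractile cells around capillaries. Both genes were rare, and both were highest in endothelial or mural-like nuclei. Cox4i2 had 30.5, 9.06 and 4.29 CPM there from 5, 1 and 2 UMIs, against 0.159, 0.327 and 0.111 CPM in neuron-like nuclei from 12, 10 and 13 UMIs. Ndufa4l2 had the same 5, 1 and 2 UMIs in the endothelial or mural-like nuclei, against 10, 5 and 5 UMIs in neuron-like nuclei. The ratio of endothelial or mural-like to neuron-like nuclei for Cox4i2 was 191, 27.7 and 38.7, with exact 95% counting intervals of 52.8 to 584, 0.639 to 195 and 4.24 to 171. For Ndufa4l2 it was 230, 55.5 and 101, with intervals of 61.6 to 738, 1.17 to 496 and 9.59 to 615. The Cox4i2 interval of mouse 2 includes 1, and no test across mice was run on this class. Of 151 endothelial or mural-like nuclei, 7 held a UMI of either gene and 3 held both. All 7 also held a UMI of the mural or fibroblast markers, which 96 of the 151 nuclei had, and 4 held one of the endothelial markers.

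**Figure D2:**
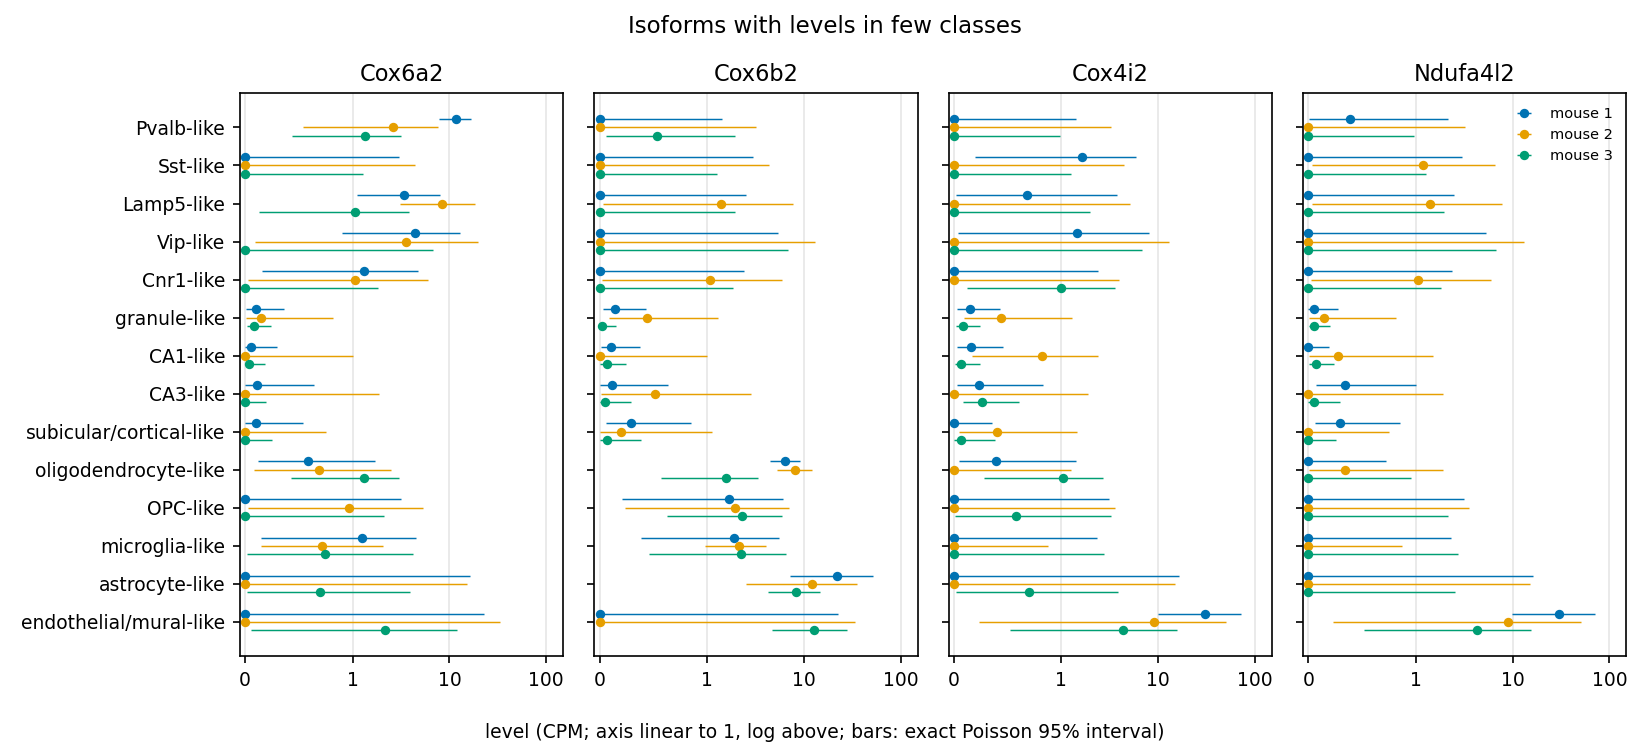
Level (CPM, x axis, linear to 1 and logarithmic above) of 4 complex IV isoform genes in 14 classes of nuclei (rows), with 1 point per mouse and bars for the exact Poisson 95% interval, which covers counting error only. Cox6a2 is higher in Pvalb-like, Lamp5-like and Vip-like nuclei, reaching 11.6 CPM, Cox6b2 in glial classes and in endothelial or mural-like nuclei of mouse 3, and Cox4i2 and Ndufa4l2 in endothelial or mural-like nuclei.

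Among the other isoforms, Cox7b2, a relative of Cox7b, had 2.62, 3.43 and 2.05 CPM in neuron-like against 1.11, 1.78 and 1.56 CPM in glia-like nuclei, which did not overlap but missed the threshold (log2 fold change 1.23, adjusted p = 0.0541). Its highest mean was in Lamp5-like nuclei, with 8.84, 4.20 and 3.19 CPM, but in mouse 2 it was higher in CA1-like (6.28 CPM), CA3-like (5.13 CPM) and granule-like nuclei (4.56 CPM). Cox7a1, the heart and muscle form of subunit 7A, had 1.16, 0.876 and 0.803 CPM in Pvalb-like nuclei, from 3, 1 and 3 UMIs, and at most 1.19 CPM in a class of any mouse, from 1 UMI in Sst-like nuclei of mouse 2. It was at 0 in Lamp5-like and in endothelial or mural-like nuclei. Cox8a, the common form of subunit 8, ran between a mean of 152 ± 64.1 CPM in endothelial or mural-like and 26.3 ± 8.52 CPM in CA3-like nuclei (SD, n = 3 mice). Cox8b, its muscle relative, is one of the genes left out.

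The promoters of the subunit 6B pair are shown because their products stand for the same subunit and the test called Cox6b2 alone between neurons and glia. They are the 250 bases before the gene start in RefSeq on GRCm38.p6, the assembly named mm10, 5' to 3', for Cox6b1 at chr7:30626115-30626364 (minus strand) and for Cox6b2 at chr7:4753095-4753344 (minus strand). Capitals mark the letters of 4 motifs searched on both strands: GCGCANGCG for NRF1, CCGGAAG for ETS factors, AAGATGGC for YY1 and GGGCGG for SP1.
Cox6b1: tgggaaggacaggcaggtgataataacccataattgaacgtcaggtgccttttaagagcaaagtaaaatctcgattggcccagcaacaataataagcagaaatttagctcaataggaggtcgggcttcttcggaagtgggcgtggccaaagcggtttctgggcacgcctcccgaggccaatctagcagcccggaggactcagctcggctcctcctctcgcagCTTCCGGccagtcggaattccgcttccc
Cox6b2: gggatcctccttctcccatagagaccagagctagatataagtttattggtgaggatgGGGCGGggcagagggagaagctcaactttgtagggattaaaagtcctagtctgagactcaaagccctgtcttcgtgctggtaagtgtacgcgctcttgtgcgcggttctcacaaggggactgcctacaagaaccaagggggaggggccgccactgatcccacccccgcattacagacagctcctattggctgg
In these bases Cox6b1 has 1 ETS match and Cox6b2 has 1 SP1 match. A match of letters is a description and not a binding site.

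More members were called in Pvalb-like inhibitory nuclei than in any other of the 6 comparisons, but the counts are not on an equal footing. This fit used the sums of 5 subtypes in each mouse, and the other fits those of a pair of classes. On simulated data it recovered 97% of genes changed by a log2 fold of 1, against 74% to 82% in the other comparisons. Set against the mean of the Sst-like, Lamp5-like, Vip-like and Cnr1-like subtypes of the same mice, 14 of the 73 members that passed the count filter were higher and 0 were lower at an adjusted p under 0.05. Pvalb-like nuclei numbered 142, 281 and 83 in mice 1, 2 and 3. The called members make up 19.2% of those tested, near the 20% of all 11284 genes called there, so the share is no result about the members. Of all genes 11.9% were called higher and 8.17% lower. The fold changes of 65 of 73 members were positive, with a median of 0.31 on the log2 scale against 0.01 over all genes tested. Per mouse, the median log2 ratio of these members, with 1 CPM added, was 0.29, 0.24 and 0.27. The 6 untested members, Cox7b2, Cox6b2, Cox6a2, Cox7a1, Cox4i2 and Ndufa4l2, were too low. By complex, 3 of 36 members of complex I, 2 of 8 of complex III, 3 of 12 of complex IV and 6 of 17 of complex V were called.

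In complex I, Ndufa11, an accessory subunit of the membrane arm, had 24.4, 17.5 and 16.6 CPM in Pvalb-like nuclei, against 15.6, 15.6 and 7.82 CPM in the mean of the other subtypes. These ranges did not overlap and the log2 fold change was 0.73 ± 0.19 (SE, adjusted p = 0.0108). Ndufs1, the largest core subunit with iron-sulfur clusters, had 102, 103 and 64.0 CPM, against 78.5, 91.0 and 51.1 CPM. It was higher in each mouse while the ranges overlapped, at 0.32 ± 0.10 (SE; adjusted p = 0.0291). Ndufa6, an accessory subunit, was also called, with a log2 fold change of 0.55.

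In complex III, Uqcrc1, a core subunit, had 69.1, 52.5 and 37.2 CPM in Pvalb-like nuclei, against 45.9, 41.1 and 22.3 CPM in the other subtypes. It was higher in all 3 mice (log2 fold change 0.57 ± 0.14, SE; adjusted p = 0.00579). Uqcr10, a small subunit, had 29.1, 30.6 and 16.3 CPM, against 17.7, 27.2 and 10.2 CPM (adjusted p = 0.0114), and the ranges overlapped.

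In complex IV, Cox4i1, the common form of the largest nuclear subunit, had 109, 99.8 and 46.3 CPM in Pvalb-like nuclei, against 78.8, 71.2 and 31.7 CPM in the other subtypes. Mouse 3 was lowest in both groups, whose ranges overlapped, and Cox4i1 was higher in each mouse. It had the lowest adjusted p of the 73 members (log2 fold change 0.51 ± 0.10, SE; adjusted p = 0.00141). Cox7b had 130, 114 and 39.9 CPM, against 76.3, 69.8 and 36.3 CPM (adjusted p = 0.00359). Cox6a1, whose relative Cox6a2 is described above, had 57.4, 48.2 and 27.3 CPM, against 44.1, 35.3 and 18.8 CPM (adjusted p = 0.0105). Both were higher in each mouse.

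In complex V, Atp5a1, the alpha subunit of the catalytic head, had 182, 114 and 85.9 CPM in Pvalb-like nuclei, against 120, 93.5 and 56.6 CPM in the other subtypes. It was higher in all 3 mice with overlapping ranges (log2 fold change 0.54 ± 0.11, SE; adjusted p = 0.00195). Atp5g1 and Atp5g3 encode the same mature c subunit of the rotor. Atp5g3 had 36.5, 40.3 and 27.0 CPM, against 24, 24.4 and 19.8 CPM, without overlap (log2 fold change 0.63, adjusted p = 0.00654). Atp5g1 had 71.0, 56.9 and 31.6 CPM, against 48.3, 43.9 and 22.2 CPM (log2 fold change 0.52, adjusted p = 0.00693). The remaining c subunit gene, Atp5g2, averaged 19.4 ± 8.37 CPM in Pvalb-like and 21.0 ± 10.3 CPM in the other subtypes (adjusted p = 0.872). Atp5l and Atp5k, for subunits of the membrane part, and Atp5c1, for the central stalk, were also called, with log2 fold changes of 0.58, 0.62 and 0.50.

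**Figure D3:**
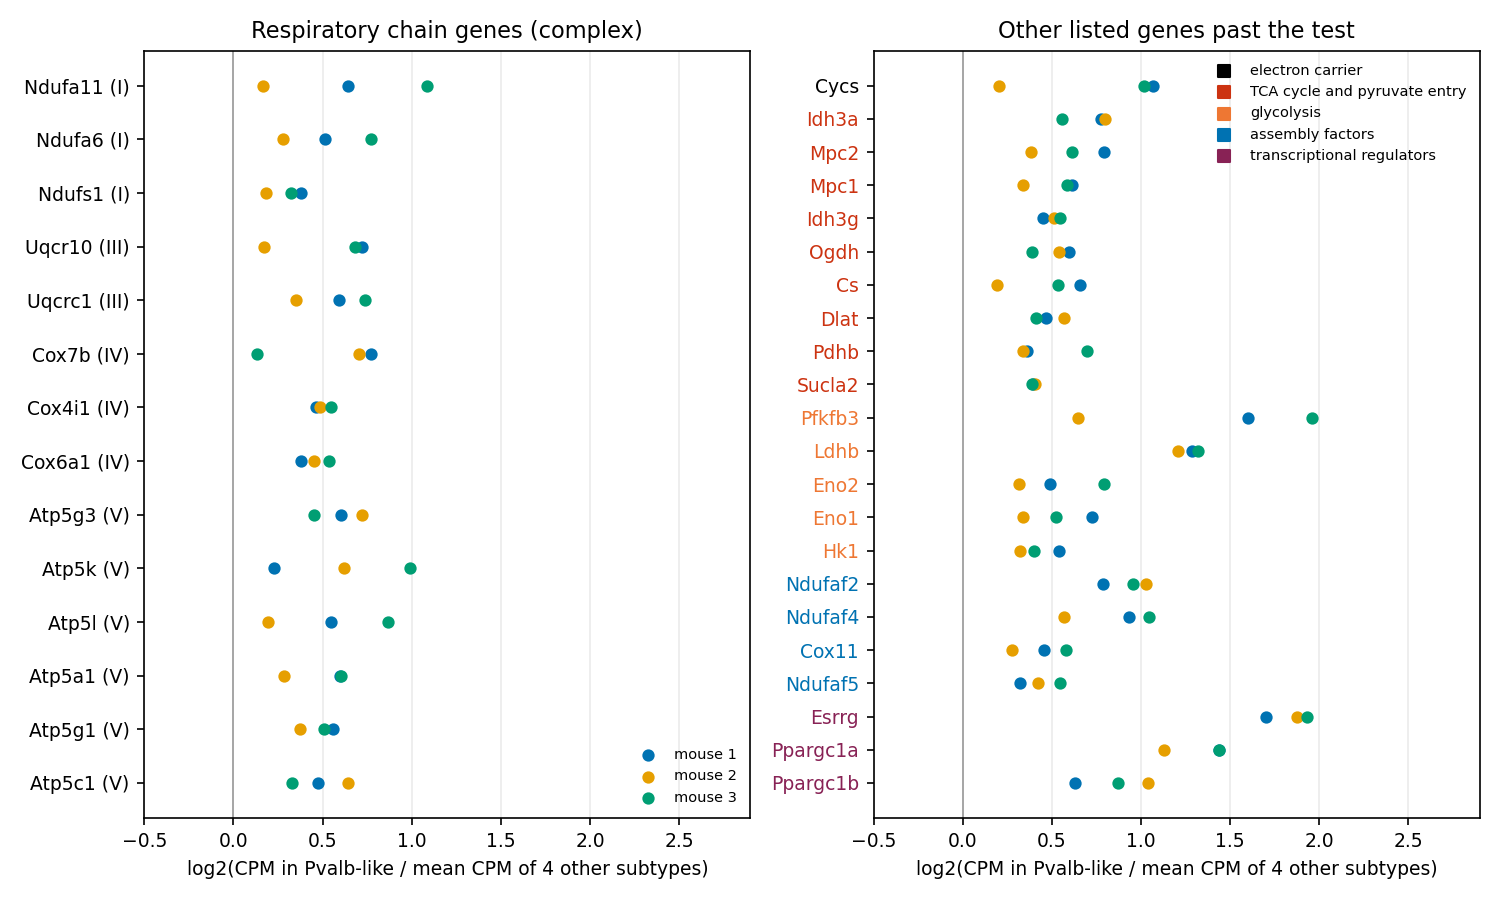
Log2 ratio of the level in Pvalb-like nuclei to the mean of 4 other inhibitory subtypes (x axis) in each mouse (points), for the 14 called respiratory chain genes with their complex (left) and for genes of the related lists past the same test with a log2 fold change of at least 0.4 (right, label colour gives the list). Every point lies above 0, which follows largely from drawing only genes called higher in this comparison. The fold changes of Esrrg and Pfkfb3 are the largest, at 1.86 and 1.84 on the log2 scale.

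These calls depended on the mice. Without mouse 1 the count was 3 of 72 members, without mouse 2 it was 8 of 73 and without mouse 3 it was 10 of 72. Without the term for the mouse it was 1 of 73. Calls over all genes fell as well, to 1302 of 10680, 1813 of 11956, 1695 of 11012 and 851 of 11284 in the same order, so a fall is not particular to the members. In mouse 2, 219 of the 281 Pvalb-like nuclei came from clusters that drew at least 90% of their nuclei from that mouse, and in mouse 3, 60 of 83 did. The gene Pvalb itself had 72.5, 46.4 and 22.5 CPM in Pvalb-like nuclei and at most 7.46 CPM in any other subtype. Median depth in Pvalb-like nuclei was 14957.5, 2002 and 41340 UMIs, against 14530, 3556 and 35452 in Sst-like nuclei. Glutamatergic markers summed to 519, 861 and 580 CPM in Pvalb-like and 485, 891 and 421 CPM in Sst-like nuclei.

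Of 80 ribosomal protein genes tested, 0 were called in edgeR or DESeq2 and 32 had a positive fold change, with a median of -0.04. The mitochondrially encoded subunits also had 0 of 4 tested called, with a median of -0.28. Cycs, for the cytochrome c that carries electrons between complexes III and IV, was higher with 37.6, 23.6 and 19.3 CPM in Pvalb-like nuclei, against 18, 20.5 and 9.53 CPM in the other subtypes (log2 fold change 0.82, adjusted p = 0.00354). The ranges overlapped through mouse 2, and its adjusted p was 0.136 without mouse 1 and 0.0776 without the term for the mouse. Of 4 genes of complex II, 0 were called.

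Several genes for the steps that feed the chain with electrons were higher. In the list of the TCA cycle and pyruvate entry 10 of 21 genes tested were higher and 0 lower, where 11.9% of all genes were higher, with a median log2 fold change of 0.40 against 0.01 for all genes. Idh3a, of the NAD-linked isocitrate dehydrogenase, had 57.4, 46.4 and 36.4 CPM in Pvalb-like nuclei, against 33.6, 26.7 and 24.8 CPM (adjusted p = 0.000737). Ogdh, of the oxoglutarate dehydrogenase complex, had 164, 175 and 146 CPM, against 109, 121 and 112 CPM (adjusted p = 0.000719). Neither pair of ranges overlapped. Mpc1 and Mpc2, which form the mitochondrial pyruvate carrier, were higher with log2 fold changes of 0.55 and 0.62, and among the others called, Cs, Idh3g, Dlat and Pdhb ran between 0.49 and 0.54. The count of 10 became 3 without mouse 1, 7 without mouse 2, 6 without mouse 3 and 2 without the term for the mouse. Fewer of all genes were called in each of these settings too.

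In the glycolysis list 6 of 21 were higher and 0 lower, again beside 11.9% of all genes called higher, with a median log2 fold change of 0.10. Ldhb, the lactate dehydrogenase subunit typical of oxidative tissue, had 85.7, 67.4 and 52.2 CPM in Pvalb-like nuclei, against 35.2, 29.2 and 20.9 CPM, with no overlap (log2 fold change 1.31, adjusted p = 8.09e-07). Pfkfb3, for an enzyme that makes the activator of phosphofructokinase, had 36.1, 32.4 and 162 CPM, against 11.9, 20.7 and 41.7 CPM (log2 fold change 1.84), and was far higher in mouse 3 than in the other mice. Eno1, Eno2, Hk1 and Pkm were the others called, and DESeq2 called 3 of the list. Among 35 assembly factors tested 4 were higher, namely Ndufaf2 (log2 fold change 0.96), Ndufaf4 (0.90), Cox11 (0.49) and Ndufaf5 (0.47), and 0 were lower. That count is close to the 11.9% of all genes called higher and is no result about the list.

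Of 14 regulators of mitochondrial genes tested, 3 were higher and 0 lower, where 11.9% of all genes were called higher, and the median log2 fold change of the list, 0.03, was near the 0.01 of all genes. Ppargc1a, for the coactivator PGC-1alpha that drives mitochondrial biogenesis, had 204, 179 and 238 CPM in Pvalb-like nuclei, against 75.6, 81.5 and 88.0 CPM in the other subtypes. Esrrg, for the nuclear receptor ERR-gamma that PGC-1alpha works with, had 615, 635 and 621 CPM, against 189, 173 and 162 CPM. Both separated without overlap and passed in all 11 alternatives that tested them, with log2 fold changes of 1.44 ± 0.14 (adjusted p = 4.49e-07) and 1.86 ± 0.11 (adjusted p = 1.81e-09). Ppargc1b, a relative of Ppargc1a, was the other one called, with a log2 fold change of 0.90 (adjusted p = 2.46e-05). With no term for the mouse its adjusted p was 0.0513. In Pvalb-like nuclei Ppargc1a was lowest in mouse 2 and Esrrg in mouse 1.

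Promoter sequences were compared because several members were higher together in Pvalb-like nuclei. RefSeq windows, each of 250 bases before and 50 after a gene start, were found for 65 of the 79 genes, 70 windows in all. Members without a window included Atp5a1, Cox4i1, Cox4i2, Cox6a2, Cox6c, Ndufa4l2, Ndufs1, Uqcrc2 and Uqcrq. The NRF1 letters were in 27.1% of the member windows, against 6.25% of all 32851 windows, and the YY1 letters in 14.3% against 2.75%. ETS letters were in 21.4% against 8.86%, and SP1 letters in 38.6% against 35.7%. The member windows had a median GC content of 57.3%, against 52.7% for all. Of the 11 members called in Pvalb-like nuclei that had a window, 8 held the NRF1 letters, and among the remaining 54 members with a window 10 did. YY1 letters were in 0 of the 11 and in 10 of the 54, ETS letters in 3 and 12, SP1 letters in 2 and 24, and any of the 4 motifs in 8 and 40. This division was looked at after the calls were known and has no test. Printed here because they show the motif with and without a match are 3 promoters with NRF1 letters, of Ndufa11 at chr17:56717512-56717761 (plus strand), Cox6a1 at chr5:115348959-115349208 (minus strand) and Atp5k at chr5:108434400-108434649 (minus strand), and that of Cox7b at chrX:106015450-106015699 (plus strand), which was called with none of the 4 motifs. They span the 250 bases before the start, 5' to 3', with motif letters in capitals.
Ndufa11: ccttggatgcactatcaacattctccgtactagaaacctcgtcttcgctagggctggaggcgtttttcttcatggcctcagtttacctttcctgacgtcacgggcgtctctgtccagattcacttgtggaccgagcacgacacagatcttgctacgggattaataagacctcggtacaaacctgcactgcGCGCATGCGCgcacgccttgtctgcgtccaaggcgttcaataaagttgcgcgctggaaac
Cox6a1: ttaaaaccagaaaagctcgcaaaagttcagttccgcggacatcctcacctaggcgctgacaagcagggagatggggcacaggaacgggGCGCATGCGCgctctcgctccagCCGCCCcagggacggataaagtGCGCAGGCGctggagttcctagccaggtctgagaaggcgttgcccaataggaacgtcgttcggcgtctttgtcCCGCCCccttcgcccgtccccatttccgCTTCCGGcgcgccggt
Atp5k: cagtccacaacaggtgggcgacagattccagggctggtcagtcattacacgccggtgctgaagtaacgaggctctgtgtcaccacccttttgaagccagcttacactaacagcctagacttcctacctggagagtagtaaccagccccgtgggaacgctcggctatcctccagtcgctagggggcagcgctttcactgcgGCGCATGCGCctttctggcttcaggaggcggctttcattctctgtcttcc
Cox7b: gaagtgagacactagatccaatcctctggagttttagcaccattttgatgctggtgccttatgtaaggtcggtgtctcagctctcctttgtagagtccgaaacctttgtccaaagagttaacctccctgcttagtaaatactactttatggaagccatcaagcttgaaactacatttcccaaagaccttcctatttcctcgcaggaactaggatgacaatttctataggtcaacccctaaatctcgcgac
The run GCGCATGCGC, which reads the same on both strands, gives 2 overlapping NRF1 matches in each of the promoters of Ndufa11, Cox6a1 and Atp5k. Cox6a1 has 3 NRF1 matches in all, 1 ETS match and 2 SP1 matches.

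Inhibitory neuron-like nuclei as a whole (563, 1518 and 288 nuclei) were set against glutamatergic ones (4420, 3630 and 2970). Of 75 members tested 3 were higher and 0 lower (4.0%), where 24.5% of all 16663 genes were called, 12.5% higher and 12% lower. All 3 were of complex IV. Besides Cox6a2, Cox7b had 93.1, 75.3 and 39.5 CPM in inhibitory nuclei, against 55.3, 54.0 and 27.2 CPM in glutamatergic nuclei (log2 fold change 0.46, adjusted p = 0.0308). Cox5a, for a subunit near the matrix, had 52.0, 43.1 and 31.2 CPM, against 32.7, 32.8 and 20.7 CPM (log2 fold change 0.43, adjusted p = 0.0341). Both were higher in each mouse with overlapping ranges. Without any 1 of the mice, without the mouse term or without the count filter Cox6a2 alone passed. The median log2 fold change of the members was 0.09, against -0.01 for all genes, and it rested on which mice were included, at 0.03 without mouse 1 and 0.20 without mouse 3. With scaling by total UMIs the medians were 0.21 for the members and 0.12 for all genes. Then 12 of 75 members were called higher, near the share of all genes, 2713 of 16663, so the count is no result about the members.

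The dentate gyrus is represented by granule-like nuclei (1834, 1360 and 1339), which were set against CA pyramidal-like nuclei (1611, 1283 and 1017). Here 8 of 74 members were higher and 0 lower (10.8%), while 21.1% of all 16833 genes were called, 8.50% higher and 12.6% lower. The fold changes of 69 members were positive, with a median of 0.34 against 0.04 for all genes. In complex I, Ndufa1, a small subunit of the membrane arm, had 13.1, 11 and 5.58 CPM in granule-like nuclei, against 7.26, 7.03 and 4.05 CPM in CA pyramidal-like nuclei (log2 fold change 0.72 ± 0.17, SE; adjusted p = 0.0363). Ndufb3, another small subunit, had 37.2, 44.6 and 33.1 CPM, against 28.2, 32.5 and 20.4 CPM, the one called member whose ranges did not overlap. Ndufb2 and Ndufb4 were also higher. In complex III, Uqcrq had 33.1, 31.6 and 17.6 CPM, against 22.9, 22.7 and 14.0 CPM (adjusted p = 0.044). In complex IV, Ndufa4 had 34.0, 37.2 and 14.9 CPM, against 22.3, 24.1 and 11.3 CPM (log2 fold change 0.60, adjusted p = 0.0268), and Cox7c and Cox6c were also higher. Of complex V, 0 of 17 members were called, although all 17 had positive fold changes.

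Ribosomal protein genes moved the same way, with 27 of 84 tested higher and 0 lower, beside 8.50% of all genes called higher, and a median log2 fold change of 0.45. The TCA cycle list had 0 genes higher and 2 lower, Dlat and Pdk2, among 22 tested, and the glycolysis list had 3 higher and 3 lower. No member remained called when any 1 mouse was left out or without the mouse term. Of all genes, 526, 3203 and 1111 were called without mice 1, 2 and 3, and 1107 without the mouse term. Granule-like nuclei were shallower than CA pyramidal-like nuclei, with median depths of 10108.5, 2450 and 24830 UMIs against 16043, 4408 and 43350. With nuclei thinned to 1000 UMIs each, 0 of 72 members and 864 of 9986 genes were called in edgeR, and the member median was 0.23. With doublets kept the median was 0.13, but the new clustering then put other nuclei in the classes, with 250 granule-like and 2497 CA pyramidal-like nuclei in mouse 2.

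CA3-like nuclei (401, 82 and 336) and CA1-like nuclei (1109, 186 and 679) differed in 1 of 74 members, 1.35%, where 15.1% of all 15276 genes were called, 8.39% higher and 6.72% lower. Atp5g1 had 44.3, 31.3 and 24 CPM in CA3-like nuclei, against 28.8, 22.9 and 21.3 CPM in CA1-like nuclei (log2 fold change 0.45 ± 0.12, SE; adjusted p = 0.0446). It was higher in each mouse, and the call was lost in 8 of 11 alternatives, with adjusted p up to 0.626. Its relatives did not pass: Atp5g3 averaged 14.1 ± 3.26 CPM in CA3-like and 18.7 ± 2.19 CPM in CA1-like nuclei, and Atp5g2 averaged 16.5 ± 5.27 CPM in CA3-like and 17.5 ± 5.68 CPM in CA1-like nuclei (SD, n = 3 mice). Among the regulators, Esrrb (log2 fold change 2.01) and Ppargc1a (0.37) were higher in CA3-like nuclei, while the member median was -0.07. That median was -0.11 without mouse 1, -0.13 with each library clustered alone, -0.16 with doublets kept and -0.11 with scaling by total UMIs, and it was 0.03 over the 28 members left with nuclei thinned to 1000 UMIs.

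Neuron-like nuclei (4983, 5148 and 3258) had lower CPM than glia-like nuclei (2500, 3471 and 1032) of the same mouse for 62 of the 79 members in all 3 mice, and higher CPM for 5. CPM scales by total UMIs, and the same count was not made over all genes, so it is no result about the members. In edgeR 3 of 76 members tested were lower and 0 higher (3.95%), where 22.7% of all 17599 genes were called, 7.77% higher and 14.9% lower. Scaling matters here: with TMM scaling the median of all genes was 0.03 and that of the members -0.13, and with scaling by total UMIs they were -0.35 and -0.52. With scaling by total UMIs 12 of 76 members were called lower, beside 3726 of 17599 genes. With TMM scaling the member median was -0.04 without mouse 1 and -0.24 without mouse 3. Besides Cox6b2, Ndufa4 had 27.7, 31.2 and 13.7 CPM in neuron-like nuclei, against 52.3, 50.2 and 33.3 CPM in glia-like nuclei (log2 fold change -0.58 ± 0.14, SE; adjusted p = 0.0497). Atp5e, for the epsilon subunit of ATP synthase, had 9.27, 12 and 6.68 CPM, against 24.9, 20.6 and 19.5 CPM (log2 fold change -0.87 ± 0.20, SE; adjusted p = 0.0445). Neither pair of ranges overlapped, but the Ndufa4 call was lost in 9 and the Atp5e call in 4 of 11 alternatives, with adjusted p up to 0.295 and 0.266. DESeq2 called 2 members higher and 3 lower, beside 3175 higher and 3259 lower of all 17599 genes. Ribosomal protein genes were lower for 16 of 83 tested and higher for 0, with a median of -0.43. Ppargc1a, Ppargc1b and Esrrg were higher in neuron-like nuclei, with log2 fold changes of 1.44, 2.20 and 2.23.

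OPC-like nuclei (227, 427 and 123), of the precursors of oligodendrocytes, were set against oligodendrocyte-like nuclei (1636, 1365 and 589). Of 73 members 0 passed in edgeR or in DESeq2, where 17.2% of all 12313 genes were called in edgeR, 8.85% higher and 8.30% lower. In edgeR 12 of the 73 members had an unadjusted p under 0.05, as did 4054 of the 12313 genes, a larger share. The count of 12 is thus no result about the members. The fold changes of 68 members were negative, with a median of -0.33 against -0.02 for all genes, and ribosomal protein genes had a median of -0.15. Cox4i1 averaged 56.8 ± 28 CPM in OPC-like and 84.5 ± 31.1 CPM in oligodendrocyte-like nuclei and was lower in all 3 mice (log2 fold change -0.66, adjusted p = 0.0676). Without mouse 2, 3 of 73 members were called, beside 3856 of 12727 genes.

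**Figure D4:**
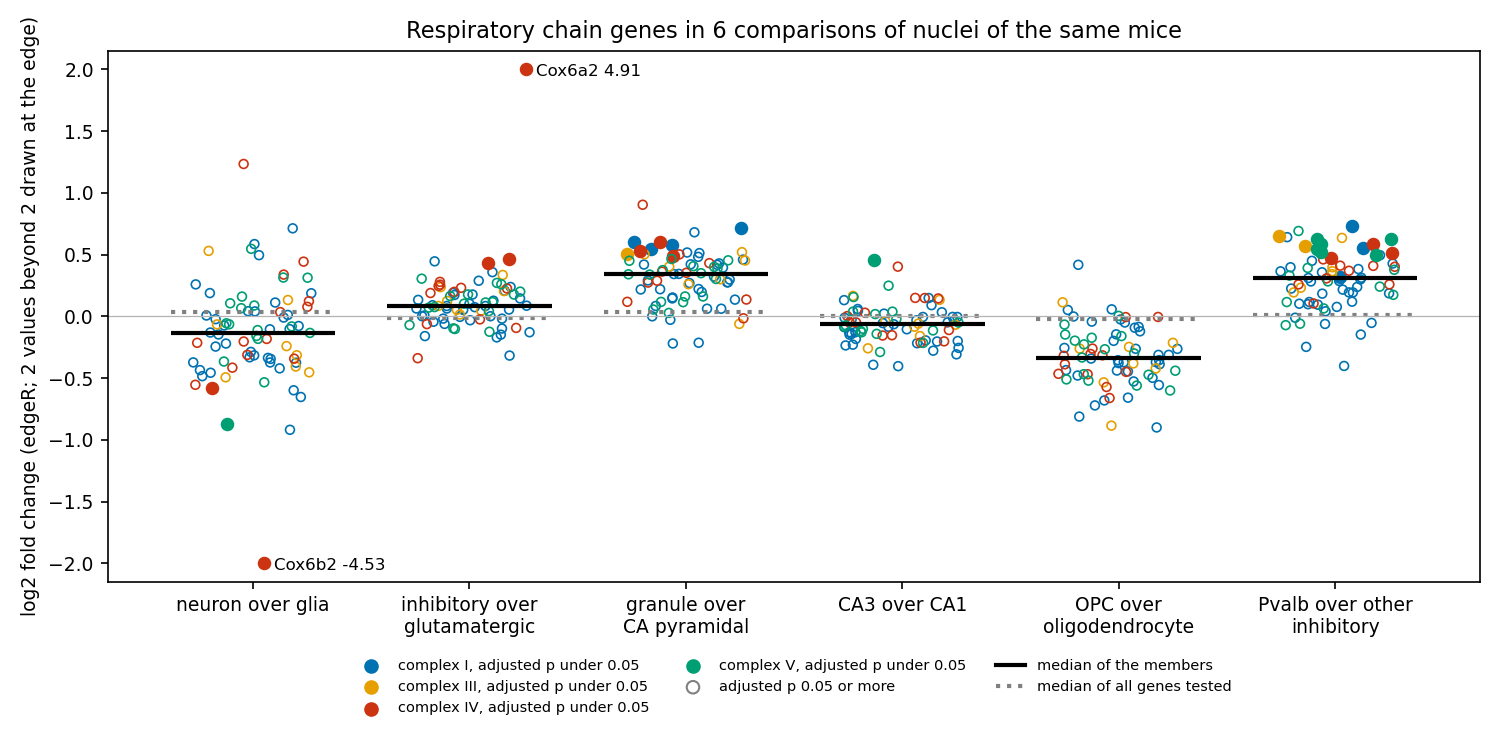
Log2 fold change (y axis, edgeR) of each tested respiratory chain gene in 6 comparisons (x axis), filled where the adjusted p was under 0.05 and coloured by complex, with the median of the members (black) and of all genes tested (grey, dotted). The member median lies above that of all genes in the granule-like and Pvalb-like comparisons and below it for OPC-like nuclei, and Cox6a2 and Cox6b2 lie beyond the axis.

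The members with the highest levels in each complex were found in every class. Ndufs4, of complex I, had means between 143 ± 23.6 CPM in endothelial or mural-like and 78.0 ± 22.0 CPM in oligodendrocyte-like nuclei, and in granule-like nuclei it had 125, 128 and 105 CPM. Uqcrc2, the other core subunit of complex III, had 70.8 ± 1.48 CPM in astrocyte-like and 33.8 ± 4.32 CPM in CA3-like nuclei, without overlap. Atp5b, the beta subunit that makes ATP, had 121 ± 28.4 CPM in astrocyte-like and 46.1 ± 26.9 CPM in Vip-like nuclei (SD, n = 3 mice each). By mean level, 49 members were highest in endothelial or mural-like nuclei and 18 in astrocyte-like nuclei. Pvalb-like nuclei were highest for 5, Atp5a1, Uqcrc1, Cox7b, Cox6a2 and Cox7a1. Among the 5 inhibitory subtypes, Pvalb-like nuclei had the highest mean for 49 members, and 14 members were highest there in each mouse. The same counts were not made over all genes, so they are no result about the members.

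Most members are short genes. Their median length in the GENCODE annotation of this build was 7187 bases, against 23600.5 for the genes tested between neuron-like and glia-like nuclei and 3328.5 for ribosomal protein genes, and they ran from 953 bases (Cox6a2) to 105382 (Cox7b2). Across the 79 members, gene length and total UMIs had a Spearman rho of 0.365, a description across genes that share libraries. Another gene on the opposite strand overlapped 28 members, among them Atp5a1, Ndufs1, Cox4i1, Atp5l, Ndufa11, Cox5a, Cox6c and Ndufb2 as well as Cox6a2. One on the same strand overlapped Ndufa13. Values of these members, and of those with near-identical processed copies elsewhere in the genome, depend on counting rules that no source used here gives.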

How the data were processed

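The authors deposited raw UMI counts per gene and barcode for 3 libraries, made with Cell Ranger 7.0.0 (mice 1 and 2) and 7.1.0 (mouse 3) per the file headers, on mm10 per the submitters' processing notes. No source used here says whether intronic reads were counted. The 79 genes and all lists were chosen with earlier results of these data known. Barcodes under 500 genes or over 5% mitochondrial UMIs were dropped. Scrublet (scanpy 1.11.5) removed 732, 1206 and 265 doublets, in mouse 2 by an expected rate of 0.8% per 1000 nuclei, since its automatic threshold failed. Leiden clustering (3000 variable genes, 30 components, 20 neighbours, resolution 1.5) left out members, lists, ribosomal and mitochondrial genes. Clusters were named from markers by rules adjusted after clusters were seen, and 311, 3265 and 11 nuclei stayed unnamed. A cluster with more than 1 ribosomal protein gene among its 10 leading genes lost its name. Counts were summed per class and mouse (at least 20 nuclei) and tested with edgeR 4.0.16 (R 4.3.3; TMM, filterByExpr, quasi-likelihood, mouse as block, two-sided, Benjamini-Hochberg adjustment over all genes tested, called at an adjusted p under 0.05), after a check on simulated data. Both sums of a mouse come from 1 animal, which pairs them, and their deviations correlated at 0.0452 to 0.7. With mouse as block, p-values measure how far class differences vary between 3 mice, each a batch of its own. In the Pvalb-like fit this variation is pooled over 5 subtypes. Named genes were the called members (at most the 8 largest folds each way), fixed isoform families, the 2 members with the highest CPM in each complex and those nearest the UMI minimum; the other members named were picked after their values were seen. Alternatives were total-count scaling, DESeq2 1.42.0, no count filter, no block, each mouse left out, a log2 fold minimum of 1, at most 0.5% mitochondrial UMIs, thinning to 1000 UMIs, libraries clustered alone and doublets kept; for the lists they were chosen after seeing the data. Counting intervals cover counting error only.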

Additional observations from a re-analysis of the deposited data

Results flagged for a closer look

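A cluster of nuclei left unnamed held the highest summed level of the 79 genes, outside every comparison above. It met the marker rules for the name CA1, with a mean log2 marker fold of 0.59, below its 1.09 for the Vip markers. The name was withdrawn because more than 1 ribosomal protein gene was among its 10 leading genes. In mouse 2 the CA1-like class kept 186 nuclei, with 1813 CPM for the 79 genes. The CA1-like, CA pyramidal-like and glutamatergic levels were taken without this cluster, and values with it were not computed. The unnamed cluster comprised 291 nuclei of mouse 1, 2128 of mouse 2 and 0 of mouse 3, and its leading genes included Chchd2, Chchd10, Rplp1, Uqcr11, Fth1 and Rps3. The 79 genes summed to 7598.5 CPM there in mouse 1 and to 5237.3 CPM in mouse 2, against 2269 and 2368 CPM in neuron-like nuclei of the same mice. Of the 79 members, 75 and 77 were higher than in the neuron-like nuclei. Ribosomal protein genes summed to 9272 and 6765 CPM, against 2227 and 2281 CPM, and mitochondrially encoded subunits to 678 and 261 CPM. These nuclei had a median depth of 0.457 of that of their mouse. No test was made, since the cluster was seen in 2 mice.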

How the results depend on the processing

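The members called in the 6 comparisons (neuron-like against glia-like, inhibitory against glutamatergic, granule-like against CA pyramidal-like, CA3-like against CA1-like, OPC-like against oligodendrocyte-like, Pvalb-like against other inhibitory subtypes) numbered 3, 3, 8, 1, 0 and 14. Counts that moved by more than 1.5 times follow, in the same order of comparisons, and their causes were not tested. Counts over all genes moved as well, as from 3555 to 1107 in the granule-like comparison without the replicate block. The counts below are thus no result about the members. With a log2 fold change of at least 1 required they were 1, 1, 0 and 0 in the first 4 and 0 in the Pvalb-like comparison. Total-count scaling gave 12, 12 and 4 in the first 3, and 1 in CA3-like nuclei, which was a member called lower. DESeq2 gave 5 in neuron-like nuclei (2 higher, 3 lower) and 0 in CA3-like nuclei. Without the count filter the inhibitory, granule-like, CA3-like and OPC-like counts were 1, 3, 2 and 2. Without the replicate block they were 1, 0 and 0 in the inhibitory, granule-like and CA3-like comparisons and 1 in the Pvalb-like one. Leaving out 1 mouse in turn gave 0 to 6, 1 to 1, 0 to 0, 0 to 1, 0 to 3 and 3 to 10. In the neuron-like comparison the count was 6 without mouse 2 and 0 without mouse 1 or mouse 3. Thinned to 1000 UMIs, all but the OPC-like comparison, already at 0, fell to 0, where the Pvalb-like fit tested 3 members only. With each library clustered alone the counts were 1, 3 and 0 in the neuron-like, granule-like and CA3-like comparisons. With doublets kept they were 6, 1, 2 and 2 in the neuron-like, granule-like, CA3-like and OPC-like comparisons. No named call reversed its direction. Depth limits these values: low members rest on few UMIs in mouse 2, and clusters that belong to 1 mouse make the classes differ in makeup between mice.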
